A study of Mus musculus with 5 samples.

Results

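The 72 genes described here encode proteins of the cytosolic ribosome, 42 of the large 60S subunit and 30 of the small 40S subunit. They were picked by symbol from a table of 13004 genes: Rpl or Rps followed by a number and at most an a or x, together with Rplp0, Rplp1, Rplp2 and Rpsa, and leaving out Rpl22 and Rpl36a. The RNA came from natural killer (NK) cells, lymphocytes that kill infected or transformed cells, sorted from mouse spleen as live CD3-, NK1.1+, DX5+ cells. All mice were 8-week C57BL/6 animals. The 3 control libraries (Ctrl 1, 2 and 3) had the genotype Mycf/f, in which Myc is flanked by loxP sites and no Cre is named. The 2 MycKO libraries (MycKO 5 and 6) had the genotype Mycdelta/delta/Ncr1Cre, in which Cre is driven by Ncr1, a gene active in NK cells and in related innate lymphocytes. Effects of Cre itself and of losing Myc therefore cannot be told apart. Nothing in the labels ties a library to a mouse of its own, and p-values then cover only the spread among these libraries, which may be technical.

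A ribosome is built from 1 copy of nearly every one of these proteins, apart from the stalk proteins. Cells make them in matched amounts, and their mRNAs are controlled together, in part by a run of pyrimidines at the very start of the mRNA (the terminal oligopyrimidine, or TOP, motif) that ties their translation to nutrient signalling. MYC, the transcription factor whose gene was deleted here, is known for driving ribosome production in growing cells. Ribosomal protein genes also have many processed pseudogenes, copies of the mRNA inserted elsewhere in the genome, which complicate read counting.

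Start sites are shown for members on which the results below turn, so that the pyrimidine run can be seen where it is present. The first 3 have the clearest lower values in MycKO, the next 4 have higher mean values in MycKO, and the last 2 have almost no reads. Each line holds 30 bases before and 20 bases from the RefSeq start site (build GRCm38.p6), 5′ to 3′ on the gene's strand. Capitals mark a run of at least 5 C or T bases that begins with C within 3 bases of the annotated start. Rpl39 and Rpl27 have no such run. Rps24, Rps21 and Rpl34 have 2 annotated starts, of which the upstream one is shown.
Rps24, chr14:24490648-24490697, plus strand: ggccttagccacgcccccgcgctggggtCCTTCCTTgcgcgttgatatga
Rpl39, chrX:37085203-37085252, minus strand: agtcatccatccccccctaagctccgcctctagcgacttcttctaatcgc
Rps15a, chr7:118116128-118116177, minus strand: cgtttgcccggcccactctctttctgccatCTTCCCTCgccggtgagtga
Rpl31, chr1:39367821-39367870, plus strand: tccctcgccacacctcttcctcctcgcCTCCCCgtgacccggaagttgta
Rpl35, chr2:39005112-39005161, minus strand: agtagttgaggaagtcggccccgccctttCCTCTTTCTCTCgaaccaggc
Rps21, chr2:180257349-180257398, plus strand: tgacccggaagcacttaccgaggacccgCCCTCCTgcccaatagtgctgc
Rpl27, chr11:101442215-101442264, plus strand: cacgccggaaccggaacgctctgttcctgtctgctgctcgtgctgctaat
Rps27, chr3:90213629-90213678, minus strand: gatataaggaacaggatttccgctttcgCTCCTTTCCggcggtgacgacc
Rpl34, chr3:130730379-130730428, minus strand: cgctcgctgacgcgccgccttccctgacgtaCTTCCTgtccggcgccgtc

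Of the members, 53 had a start site in the RefSeq table, and 23 of them (43.4%) held such a run, against 1518 of 10050 listed genes (15.1%). The run was found in 14 of 31 members of the 60S subunit and in 9 of 22 of the 40S subunit. The palindrome CACGTG, the E-box that MYC and its partner MAX are known to bind, lay in the 300 bases around the start (250 before, 50 after) in 6 of the 53 members (11.3%) and in 1153 of the 10050 genes (11.5%). Rps24 and Rps15a, with low values in MycKO, held the run. So did Rpl31, Rpl35 and Rps21, with mean fold changes above 0, though the groups overlapped for Rps21. A match is a description of the sequence only, and a run farther from the annotated start was not counted.

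Libraries held 5451728 (MycKO 5) to 17610826 (Ctrl 2) reads in listed genes, so counting error was largest in MycKO 5. Myc itself was at 13.0, 23.0 and 21.2 RPKM (reads per kilobase of transcript, scaled to the size of the library) in Ctrl 1, 2 and 3, against 12.5 and 8.70 RPKM in MycKO 5 and 6, with a limma adjusted p of 0.297. That value covers the whole gene, and which part of it was deleted is not stated, so it is a weak check of the labels. Summed marker levels of 4 other cell types were higher in both MycKO libraries than in every control. Of all 11190 genes tested, limma called 139 higher. Of 11 myeloid markers 9 passed limma as higher, with summed levels of 232 to 428 RPKM in Ctrl and 1301 to 1895 RPKM in MycKO. Of 6 T cell markers 2 passed as higher (sums of 36.7 to 59.4 and 129.9 to 192 RPKM). Of 6 B cell markers 1 did (83.4 to 139.1 and 337 to 677 RPKM), and of 4 measured red cell markers 2 (83.0 to 134 and 213 to 372 RPKM). The B cell marker called was Jchain, which made up most of the MycKO sums (232 and 580 RPKM). All 6 B cell markers were higher in both MycKO libraries than in every control, against 18.8% of all genes. Cd5 and Cd6, both T cell markers, were listed at 0 in at least 2 libraries. The 9 NK markers summed to 11790 to 13680 RPKM in Ctrl and 9179 to 10777 RPKM in MycKO. Gzma held the largest part, with means of 6910 RPKM in Ctrl and 5159 RPKM in MycKO. Limma called 0 of the 9, with 6 lower at an unadjusted p under 0.05 (3.35% of all genes). Limma-voom called 4 lower (0.286% of all genes). By log2 fold change 7 were lower, against 42.9% of all genes, and among the 7 was Ncr1, whose gene drives the Cre. The 2 higher ones were Klrb1c (0.05) and Klrd1 (0.03). Other cells in the sort carry ribosomal protein mRNA too, in amounts not measured here. Their part in the results below was not tested. In bulk RNA, fewer cells of a type and less RNA per cell cannot be told apart.

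Most members were among the abundant transcripts of these cells. The median level over the 5 libraries was 675 RPKM for 60S members and 717 RPKM for 40S members, against 12.3 RPKM for all 11190 genes tested. The highest 60S members were Rplp1 (1461 RPKM), an acidic protein of the stalk that recruits elongation factors, Rpl9 (1330 RPKM) and Rpl23a (1271 RPKM), which sits at the rim of the exit tunnel. High 40S members were Rps14 (1387 RPKM), a platform protein, and Rps4x (1188 RPKM), the X-linked copy of a protein of the body. Values by library were 1597, 1331 and 1439 RPKM in Ctrl and 1545 and 1393 RPKM in MycKO for Rplp1, and 1415, 1361 and 1325 against 1310 and 1238 RPKM for Rpl9. Rps4x had 1209, 1377 and 1293 RPKM in Ctrl and 1058 and 1004 RPKM in MycKO. Rpl9 and Rps4x had both MycKO libraries below all controls, while Rplp1 overlapped. Within each subunit most members lay within a few-fold of each other, and 6 lay more than 1.5 interquartile ranges below the lower quartile, under 186 RPKM for the 60S and under 239 RPKM for the 40S. None lay above the corresponding upper limit.

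**Figure D1:**
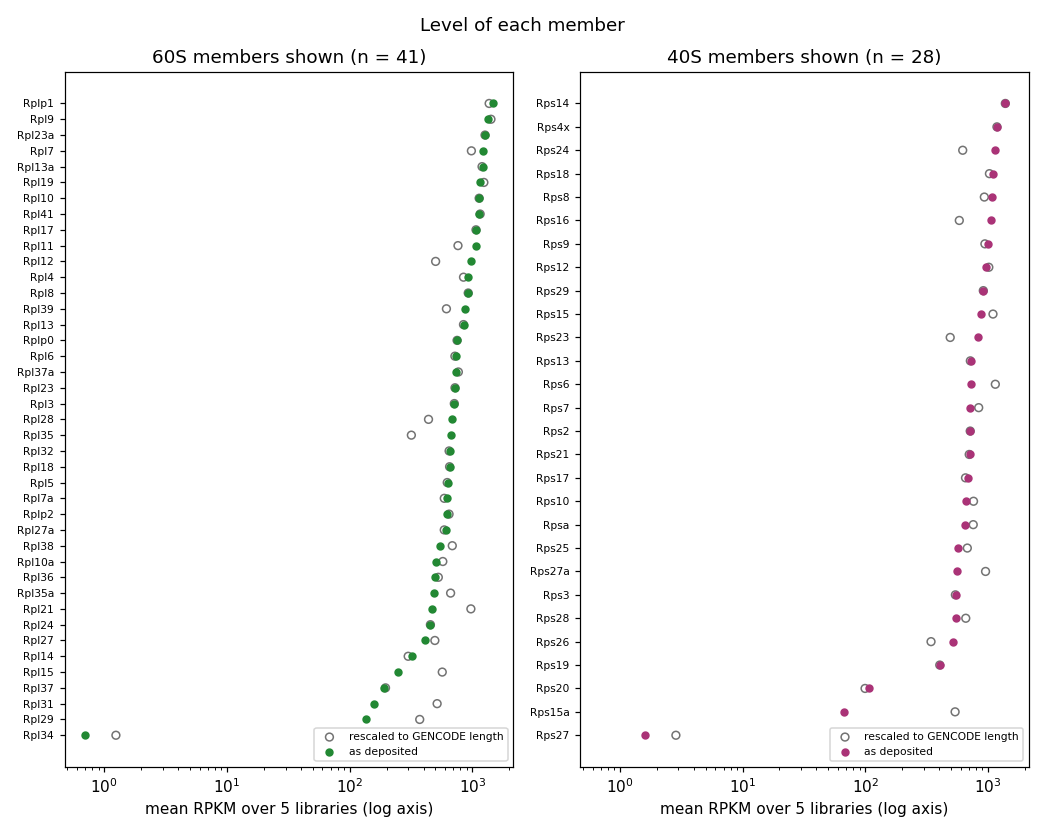
Mean RPKM over the 5 libraries of the members shown, 60S (left) and 40S (right), on a log axis, as deposited (filled) and rescaled to the length of the GENCODE principal transcript (open). Most members lie near the medians of 675 and 717 RPKM, Rps15a, Rpl31 and Rpl29 move up by rescaling, and Rpl34 and Rps27 stay near 1 to 3 RPKM.

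The 6 low members differed in kind. Rps15a, a 40S protein, was at 78.3, 75.5 and 70.5 RPKM in Ctrl 1, 2 and 3 while MycKO 5 and 6 had 55.7 and 56.5 RPKM. Both MycKO values lay below all controls. The reads behind these values numbered 6054, 6832, 5177, 1561 and 3874, and the transcript length in the authors' calculation was 5134 bases, against 640 bases for the GENCODE principal transcript. On the GENCODE length its mean was 540 RPKM, within the range of the other 40S members, in place of 67.3 RPKM. Rpl31, at the tunnel rim, was computed with 1600 bases against 487 and moved from 157 to 516 RPKM, and Rpl29 was computed with 1609 bases against 583 and moved from 135 to 372 RPKM. Rps20, of the 40S head, was at 107 RPKM with 3446 bases and stayed low, at 99.7 RPKM, GENCODE giving it 3706 bases. It had 99.1, 138 and 104 RPKM in Ctrl 1, 2 and 3 against 102 and 93.3 RPKM in MycKO 5 and 6, and Rpl29 had 122, 151 and 153 against 149 and 99.8 RPKM, so both overlapped between groups. The low levels of Rps15a, Rpl31 and Rpl29 per length therefore depend on which transcript length is used. Rps20 had 5142, 8379, 5123, 1909 and 4290 reads, numbers like those of Rps15a. Its 3706 bases were the longest GENCODE transcript of all members, whose median was 751 bases. Both lengths used for Rps20 were long, so its low level may depend on length too, which was not tested.

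Rpl34 (mm10 chromosome 3, 130726831 to 130730398, minus strand) and Rps27 (chromosome 3, 90212522 to 90213651, minus strand) had almost no reads. Rpl34 had 28 reads in Ctrl 1, 15 in MycKO 6 and 0 in the other 3 libraries. Rps27 had 28 reads in Ctrl 1, 14 in Ctrl 3, 28 in MycKO 6 and 0 in Ctrl 2 and MycKO 5, where a count of 0 allows up to 3 reads. Every other member had at least 900 reads in each library. Of the windows of 51 bases (the read length) along the GENCODE transcript of Rps27, 98.6% also occurred in other annotated genes, 8 of them pseudogenes, which was the highest share of all members. For Rpl34 the share was 50.2%, with 9 pseudogenes, below the members' median of 58.4%. Rpl35, with a share of 94.9% over its GENCODE transcript, was at 666 RPKM as deposited and at 318 RPKM on the GENCODE length. Over the 70 members other than Rpl34 and Rps27, all from the same libraries, Spearman's rho of deposited level with shared windows was 0.01. The part of shared windows in the few reads of Rpl34 and Rps27 was not tested. The sources used here do not say how reads matching several places were treated, and all members with shared windows are therefore uncertain in level. Rpl34 and Rps27 give no usable comparison between groups and are left out where 70 members are named.

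The comparison between groups asked whether transcripts of either subunit differ between the MycKO and the control libraries. None of the 72 members, all of which passed the filter of at least 1 RPKM in at least 2 libraries, passed limma at an adjusted p under 0.05, against 1.34% of all genes tested. Of the 70 members, 61 had a lower mean in MycKO (35 of 41 in the 60S and 26 of 29 in the 40S), while 42.9% of all genes had a log2 fold change below 0. The differences were small: the median log2 fold change was -0.17 for the 41 members of the 60S and -0.19 for the 29 of the 40S, against 0.05 for all genes. An unadjusted p under 0.05 with a lower value was found for 7 members of each subunit, together 14 of 72, against 3.35% of all genes, and for none with a higher value.

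Both MycKO libraries lay below all 3 controls for 37 members, 22 of the 60S and 15 of the 40S, against 10.4% of all genes. They lay above all 3 controls for only 2 members, Rpl31 and Rpl35, against 18.8% of all genes. Rps24, Rpl39 and Rps15a, 3 members in all, were lower at an adjusted p under 0.05 in the authors' deposited table, against 0.5% of its genes, and 0 were higher there. In limma-voom, run on whole reads, 2 were lower (Rps24 and Rpl23a), against 0.286% of genes.

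**Figure D2:**
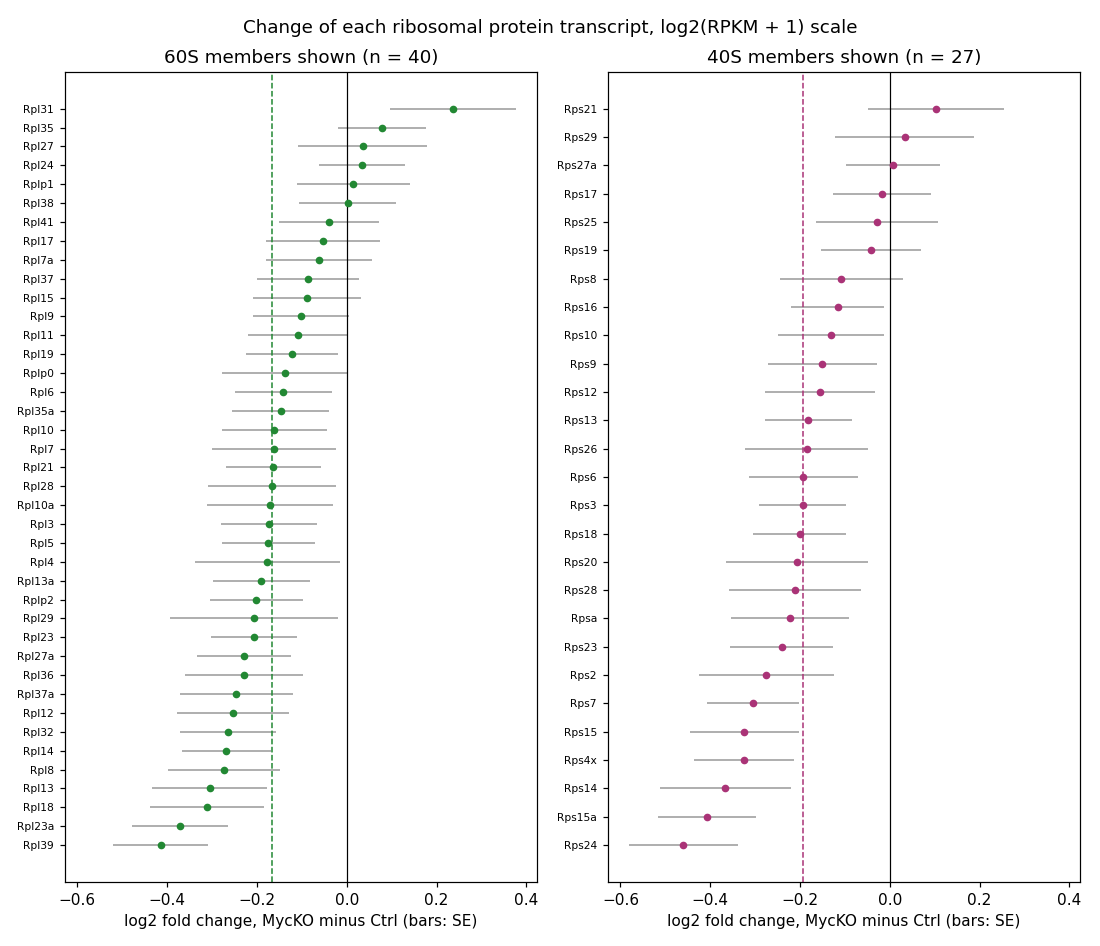
Log2 fold change (MycKO minus Ctrl, on the log2(RPKM + 1) scale) with its SE for the members shown, 60S (left) and 40S (right), sorted. Dashed lines mark the medians of all 41 members of the 60S (-0.17) and all 29 of the 40S (-0.19), and values run from Rps24 at -0.46 to Rpl31 at 0.24.

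The lowest fold change in the 40S belonged to Rps24 (chromosome 14, 24487125 to 24496959, plus strand), a protein of the 40S body whose human counterpart is mutated in some cases of Diamond-Blackfan anaemia. Its level was 1252, 1423 and 1195 RPKM in Ctrl 1, 2 and 3 and 898 and 974 RPKM in MycKO 5 and 6. The groups did not overlap, with means of 1290 ± 118 RPKM (SD, n = 3) and 936 ± 53.2 RPKM (SD, n = 2). The log2 fold change was -0.46 (SE 0.12), with an adjusted p of 0.146 in limma, 0.0247 in limma-voom and 0.016 in the authors' deposited table. Rps15a (chromosome 7, 118104372 to 118116188, minus strand), whose values are given above, followed at -0.41 (SE 0.11), with a limma adjusted p of 0.154 and 0.0363 in the authors' deposited table. Since a length divides every library alike, its fold change does not depend on the length used. Rps14 came next, with 1424, 1793 and 1363 RPKM in Ctrl 1, 2 and 3 and 1133 and 1219 RPKM in MycKO 5 and 6. Its groups did not overlap, yet its highest value, in Ctrl 2, set much of the difference: the log2 fold change was -0.37 with all libraries and -0.25 without Ctrl 2.

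Among 60S members the lowest fold change belonged to Rpl39 (chromosome X, 37082520 to 37085402, minus strand), a very small protein that lines the exit tunnel. Its 3 controls had 967, 1019 and 903 RPKM, and MycKO 5 and 6 had 708 and 736 RPKM. The groups did not overlap, and the log2 fold change was -0.41 (SE 0.11) with an adjusted p of 0.137 in limma and 0.0355 in the authors' deposited table. Rpl23a (chromosome 11, 78180932 to 78183584, minus strand), the docking site for factors at the tunnel exit, was at 1334, 1465 and 1394 RPKM in Ctrl and 1060 and 1100 RPKM in MycKO 5 and 6. Its log2 fold change was -0.37 (SE 0.11), with an adjusted p of 0.181 in limma and 0.0424 in limma-voom.

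At the other end, 9 of the 70 members had a mean fold change above 0. Rpl31 (chromosome 1, 39367842 to 39371911, plus strand) was at 154, 124 and 163 RPKM in Ctrl 1, 2 and 3 while MycKO 5 and 6 had 163 and 181 RPKM. The MycKO values lay just above its controls, and MycKO 5 was within 1 RPKM of Ctrl 3. The log2 fold change of 0.24 (SE 0.14; limma adjusted p = 0.573) was the only one beyond 1.5 interquartile ranges from the quartiles of its subunit, and it was 0.12 without Ctrl 2. Rpl35, also at the tunnel rim, was at 636, 673 and 645 RPKM in Ctrl and 702 and 674 RPKM in MycKO 5 and 6, a log2 fold change of 0.08 (adjusted p = 0.84). In the 40S, Rps21 was at 779, 563 and 732 RPKM in Ctrl 1, 2 and 3 while MycKO 5 and 6 had 719 and 753 RPKM. The groups overlapped, its log2 fold change was 0.10 (adjusted p = 0.873), and Ctrl 2 alone lay apart. Rps27a, which is made as a fusion with ubiquitin, was at 564, 580 and 535 RPKM in Ctrl and 595 and 531 RPKM in MycKO 5 and 6, a log2 fold change of 0.01 that turned to -0.05 under median-of-ratios scaling.

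**Figure D3:**
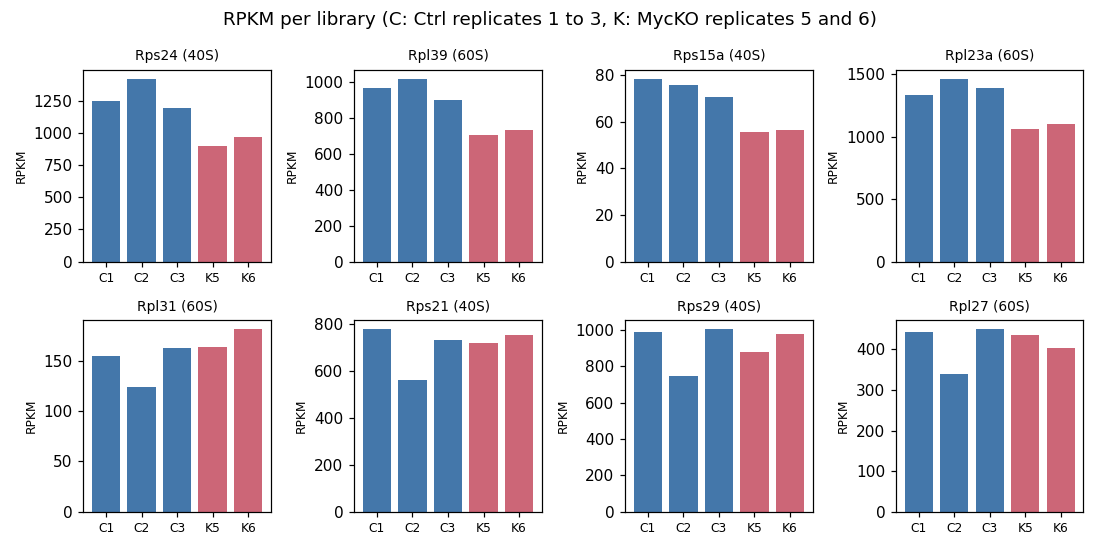
RPKM in each library (C1 to C3, Ctrl; K5 and K6, MycKO) for 4 members with low values in MycKO (Rps24, Rpl39, Rps15a, Rpl23a) and 4 with mean fold changes above 0 (Rpl31, Rps21, Rps29, Rpl27). In the first 4 both MycKO bars lie below all control bars, and in the last 4 the Ctrl 2 bar is the lowest.

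By place in the ribosome, the median log2 fold change ran from -0.12 (exit tunnel) to -0.24 (mRNA channel). In the 60S stalk (Rplp0, Rplp1, Rplp2 and Rpl12), the landing platform for elongation factors, 3 of 4 members were lower and the fold changes ran from -0.25 (Rpl12) to 0.01 (Rplp1). The proteins that carry 5S rRNA and can also bind the p53 regulator MDM2, Rpl5 and Rpl11, were at -0.17 and -0.11. The proteins at the tRNA sites and subunit bridges, Rpl3, Rpl10 and Rpl10a, lay close together at -0.17, -0.16 and -0.17. The 7 measured proteins of the exit tunnel wall and rim spread most, from Rpl39 at -0.41 to Rpl31 at 0.24, with 5 lower, 2 higher and a median of -0.12. Rpl26, the eighth of that list, was not analysed here.

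In the 40S, all 5 proteins of the mRNA channel and decoding region were lower, with a median of -0.24: Rps15 (-0.32), Rps2 (-0.27), Rps23 (-0.24), Rps3 (-0.19) and Rps9 (-0.15). Of the 6 proteins of the body and foot all were lower, with a median of -0.19 and Rps24 lowest at -0.46. Of the 11 head proteins 10 were lower, with a median of -0.13, among them Rps18 (-0.20), while Rps29 was at 0.03. Among the platform and exit proteins Rps14 was at -0.37, Rpsa at -0.22, Rps26 at -0.19 and Rps21 at 0.10. None of these passed limma, so the order of the regions is a description.

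Summed over its members, each subunit had a lower level in both MycKO libraries than in any control. The 60S members summed to 30900, 33275 and 31008 RPKM in Ctrl 1, 2 and 3 and to 29002 and 27612 RPKM in MycKO 5 and 6. The 40S members summed to 23682, 23802 and 23377 RPKM in Ctrl and to 21149 and 20343 RPKM in MycKO. The groups did not overlap for either sum. The mean was 31728 ± 1341 RPKM (SD, n = 3) against 28307 ± 983 RPKM (SD, n = 2) for the 60S, a change of -10.8%, and 23620 ± 219 RPKM against 20746 ± 570 RPKM for the 40S, a change of -12.2%. As shares of all reads in listed genes, 60S members took 2.65% ± 0.116 in Ctrl and 2.36% ± 0.0834 in MycKO, and 40S members 1.83% ± 0.0561 and 1.59% ± 0.0482 (SD, n = 3 and 2). Myeloid markers, with sums of 232 to 428 RPKM in Ctrl and 1301 to 1895 RPKM in MycKO, moved the other way in the same libraries. So did the sums of T cell, B cell and red cell markers. The part of any of these cells in the lower subunit sums was not tested.

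The balance between the subunits differed little, and whether the groups overlapped depended on the measure. The ratio of the 60S sum to the 40S sum was 1.30, 1.40 and 1.33 in Ctrl 1, 2 and 3 and 1.37 and 1.36 in MycKO 5 and 6, so the MycKO values lay inside the control range. The group means were 1.34 ± 0.0488 (SD, n = 3) and 1.36 ± 0.0099 (SD, n = 2), a log2 difference of 0.02. With the median over members in place of the sum the difference was 0.0013, without the most abundant member of each subunit it was 0.0023, and with whole reads it was 0.041. On whole reads, which are not divided by length, the log2 ratio was 0.51, 0.55 and 0.53 in Ctrl 1, 2 and 3 and 0.58 and 0.57 in MycKO 5 and 6, so there both MycKO values lay above all controls. The highest ratio of summed RPKM came from a control, Ctrl 2, where the 60S sum was the highest of all libraries and the 40S sum was close to that of Ctrl 1.

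**Figure D4:**
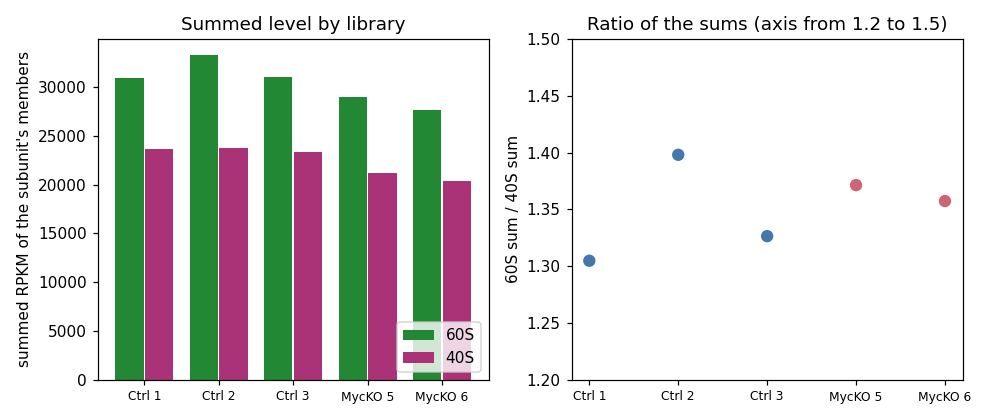
Left, summed RPKM of the 42 members of the 60S and the 30 of the 40S in each library. Right, the ratio of the 60S sum to the 40S sum (axis from 1.2 to 1.5), which lies at 1.30 to 1.40 in Ctrl (blue) and at 1.36 and 1.37 in MycKO (red).

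Coordination between members was read from each member's log2(RPKM + 1) minus its own mean over the 5 libraries, since 5 libraries are too few for correlations. The median deviation of 60S members was 0.02, 0.14 and 0.04 in Ctrl 1, 2 and 3 and -0.05 and -0.12 in MycKO 5 and 6. For 40S members it was 0.09, 0.11 and 0.06 in Ctrl and -0.06 and -0.16 in MycKO. Both subunits thus had their lowest values in MycKO 6, where only 4 of 42 members of the 60S and 5 of 30 of the 40S lay above their own mean. In Ctrl 1 the numbers were 26 of 42 and 25 of 30. All genes tested showed medians of -0.03 to 0.04 in these libraries.

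After removal of the subunit's median in each library, the SD left over the 5 libraries had a median of 0.11 on the log2 scale over the 72 members, 0.105 in the 60S and 0.129 in the 40S. Without that removal, the SD of a member over the libraries had a median of 0.159. For all genes tested it was 0.263, and most of them are far less abundant and so carry more counting error. The removal did not narrow every member: for some, among them Rpl24, Rpl35, Rps21 and Rps25, the SD was larger after it than before. Rpl3, Rpl10 and Rpl10a, at the tRNA sites and bridges, had a left-over SD of 0.030, 0.044 and 0.104, the last near the 60S median. Low values were not particular to that site, as Rpl19 had 0.032 and Rpl6 had 0.038. Beyond 1.5 interquartile ranges above the upper quartile lay Rpl31 (0.30), Rpl27 (0.23) and Rpl29 (0.21), besides Rpl34 and Rps27. In the 40S only Rps27 did, and the next highest were Rps21 (0.26) and Rps29 (0.24).

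**Figure D5:**
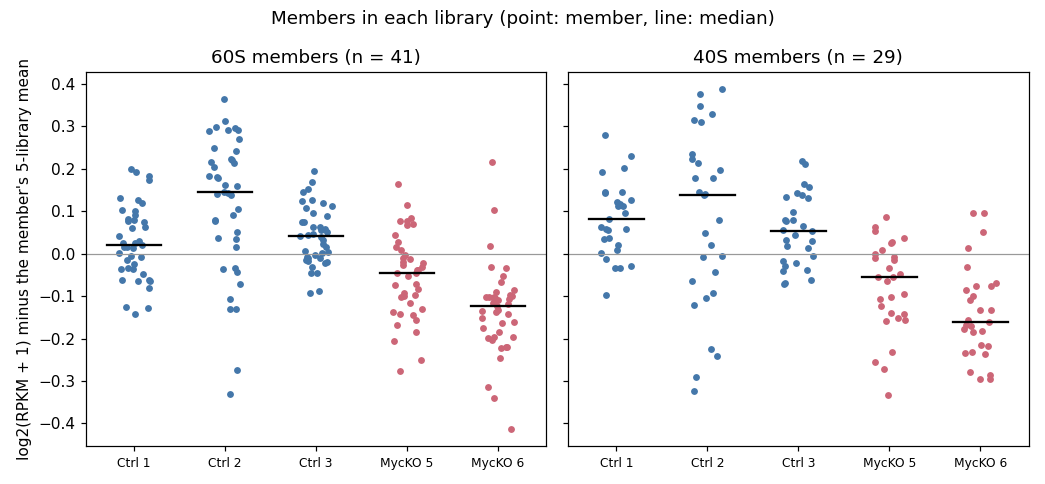
Log2(RPKM + 1) of each member minus its mean over the 5 libraries, for 41 members of the 60S (left) and 29 of the 40S (right), with the median as a line. Medians are above 0 in the 3 Ctrl libraries and below 0 in both MycKO libraries, and the points of Ctrl 2 spread most.

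Ctrl 2 held the largest share of this scatter. The SD of the left-over deviations across the 70 members was 0.180 in Ctrl 2, against 0.087 and 0.074 in Ctrl 1 and 3 and 0.101 and 0.108 in MycKO 5 and 6. In Ctrl 2, 13 members lay more than 0.2 below their subunit's median deviation and 7 more than 0.2 above it, while no member did either in Ctrl 1 or Ctrl 3. The low ones included Rpl31 (-0.48), Rps21 (-0.43), Rpl27 (-0.42), Rps29 (-0.40) and Rps25 (-0.33), and the high ones by Rps14 (0.28), Rps20 (0.27), Rps2 (0.24), Rps24 (0.22) and Rpl4 (0.22). Rpl27, for example, was at 443, 340 and 450 RPKM in Ctrl 1, 2 and 3, against 434 and 402 RPKM in MycKO 5 and 6. Rps29 was at 985, 745 and 1004 RPKM in Ctrl and 877 and 974 RPKM in MycKO. Ctrl 2 was the lowest library in both. Rpl4, which reaches into the exit tunnel, went the other way, with 822, 1169 and 902 RPKM in Ctrl and 884 and 804 RPKM in MycKO.

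Across 40S members, the deviation in Ctrl 2 was related to transcript length, with a Pearson's r of 0.55 and Spearman's rho of 0.51 over 29 genes of the same library, and shorter transcripts were lower. In Ctrl 1 the values were -0.61 and -0.50, and Pearson's r was -0.05 in Ctrl 3, -0.28 in MycKO 5 and -0.25 in MycKO 6. Deviations are taken from each member's own mean over the 5 libraries, so a positive relation in Ctrl 2 forces a negative one elsewhere, without fixing in which library. The positive and negative values are therefore not independent of each other. Whether Ctrl 1 has a relation of its own was not tested. Across 60S members the values in Ctrl 2 were 0.21 and 0.15 over 41 genes. Without Ctrl 2 the median left-over SD of all members was 0.080 in place of 0.11, and the fold changes of Rps21, Rps29 and Rpl27 turned from 0.10, 0.03 and 0.04 to -0.04, -0.11 and -0.09. With Rpl34 and Rps27 counted, the numbers of lower members changed little without Ctrl 2. They went from 35 to 38 of 42 in the 60S and from 27 to 28 of 30 in the 40S.

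The fold change was also set against other properties of the members. Over the 70 members, Spearman's rho with the fold change was -0.09 for the mean level, -0.24 for the GENCODE transcript length, 0.04 for GC content and 0.25 for the share of 51-base windows found in other genes. By subunit, rho with transcript length was -0.42 over the 29 members of the 40S and -0.14 over the 41 of the 60S, and rho with shared windows was 0.15 and 0.33. These fold changes include Ctrl 2, where the deviations of 40S members were themselves related to length (Pearson's r of 0.55). The relation of the fold change with length was not computed without Ctrl 2. The members lie on 19 chromosomes, with 14 of them on chromosome 7.

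Ribosomal proteins with other names also had lower means in MycKO. Of 4 such genes measured, Rack1, a signalling scaffold on the 40S head, was at -0.28, Rps3a1 at -0.27 and Fau, a fusion that yields a 40S protein, at -0.01, and limma called 0 (0 at an unadjusted p under 0.05, 0 in limma-voom). Of 16 other mRNAs known for the TOP motif, mostly translation factors, 13 were lower and 3 higher, with a median of -0.11. Of all genes, 42.9% were lower. Limma called 0 (1 lower at an unadjusted p under 0.05, against 3.35% of all genes, and 0 in limma-voom). Both MycKO libraries lay below all controls for 7 of the 16, against 10.4% of all genes. The higher ones were Hnrnpa1 (0.51, limma adjusted p = 0.506), Eif2s3x (0.12) and Naca (0.0025), and the groups overlapped for each. The lowest of the 16 was Eif3f, a subunit of an initiation factor, at 177, 236 and 187 RPKM in Ctrl 1, 2 and 3 and 160 and 129 RPKM in MycKO 5 and 6 (-0.46, adjusted p = 0.256). Eef1a1, the main elongation factor, was at 4122, 4741 and 4259 RPKM in Ctrl and 3774 and 3549 RPKM in MycKO, and Eef2 at 664, 825 and 634 RPKM in Ctrl and 616 and 553 RPKM in MycKO. The groups did not overlap for either.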

How the data were processed

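RNA of sorted NK cells was sequenced from 3 Ctrl and 2 MycKO samples as single reads of 51 bases. Per the submitters' processing notes, TopHat and edgeR were used, without a stated role or version, on mm10; the annotation, the counter and whether strand was used are not stated in them, so overlapping and antisense genes cannot be told apart. The authors' deposited table holds RPKM per sample, the authors' mean normalized signal per group (lowest 2.1), their ratio (fold change), its log2 value and their p-value and adjusted p-value, per the file headers, with no test named. Since the table holds RPKM, no count model gave the reported fold changes.

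Whole reads and transcript lengths were recovered by combining RPKM with the group means. All values (100%) were whole within 0.0001 of a read, and all lengths within 0.01 bases. The lowest chi-square per degree of freedom between any 2 libraries was 17.5, so none were duplicates. The 11190 genes reaching 1 RPKM in 2 or more samples were analysed as log2(RPKM + 1) with limma 3.58.1 in R 4.3.3 with a mean-variance trend, two-sided (residual df of 3, prior df of 4.41), with Benjamini-Hochberg adjustment over all genes and a threshold of 0.05. Limma-voom on the whole reads used TMM factors from a separate implementation. Fold changes understate changes of low genes. The fit was tested on simulated data. Coordinates and principal transcripts are from GENCODE vM21 (GRCm38, the mm10 assembly), matched by symbol for all 72 members; start sites are from RefSeq (GRCm38.p6). The principal transcript, the pyrimidine-run definition, the rescaled lengths, the relations with gene properties and the limit of 0.2 for deviations were chosen after output had been seen. Members, lists and tests were chosen with earlier results of these data known. Members named with values were the 3 highest and 3 lowest of each subunit in level and in fold change, the 2 with the largest left-over SD, those called by any test, and those beyond 1.5 interquartile ranges; others named, such as Rpl4 and Rps18, were chosen after their values were seen. Some members are counted in all totals but not reported singly here or drawn by name. Figures were drawn with matplotlib 3.10.9.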

Additional observations from a re-analysis of the deposited data

How the results depend on the processing

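No paired analysis was possible because the groups share no replicate number. The number of all genes called was 150, and 80 with a pseudocount of 0.1, 442 in the authors' deposited table, 224 in limma-voom, and 34 to 217 when 1 library was left out (39 without Ctrl 1, 35 without Ctrl 3, 34 without MycKO 5, 54 without MycKO 6). Members called numbered 0, but 2 in limma-voom and 3 in the authors' deposited table (chosen after seeing the data); the 5 runs without 1 library, median-of-ratios scaling, a pseudocount of 0.1 and no filter gave 0. The 60S median of -0.17 was -0.23 in limma-voom and -0.23 in the authors' table, and -0.20 to -0.11 without 1 library. The 40S median of -0.19 was -0.24 with median-of-ratios scaling, -0.25 in limma-voom and -0.25 in the authors' table, and -0.23 to -0.13 without 1 library, the latter without MycKO 6. Median-of-ratios scaling moved the median of all genes from 0.05 to -0.0011, and the members' negative medians grew with it. The balance between subunits ranged from 0.0027 to 0.052 without 1 library, and the median left-over SD from 0.080 (without Ctrl 2) to 0.12. Members near 0 changed sign. Under median-of-ratios scaling Rpl27 was at -0.017, Rplp1 at -0.039, Rps27a at -0.046 and Rps29 at -0.020. In limma-voom Rpl27 was at -0.024, Rplp1 at -0.050 and Rps27a at -0.063. In the authors' table Rpl27 was at -0.035, Rplp1 at -0.048, Rps27a at -0.052 and Rps29 at -0.038. Without 1 library, Rpl27 ran from -0.094 to 0.11, Rplp1 from -0.060 to 0.090, Rps27a from -0.074 to 0.089, Rps29 from -0.11 to 0.11, Rps21 from -0.037 to 0.20 and Rpl29 from -0.50 to 0.083. The cause was not tested. Rpl34 and Rps27 had at most 28 reads in any library, too few for a comparison.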
